A study of Homo sapiens with 32 samples.

Results

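The loops across the MYC and PVT1 domain are those with at least 1 of their 5 kb anchors between 126 Mb and 131 Mb of human chromosome 8 (build hg38). Across the 4 deposited loop lists, 13 of 45629 loops met this rule. The wild-type control list gave 3 of its 15180 loops, the eGFP-YAP control list gave 10 of its 18966, and neither sorbitol list gave any (0 of 5906 loops for wild type, 0 of 5577 for eGFP-YAP). The rule uses the position of the anchors and not the scores of the loops.

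Chromatin contacts were mapped by in situ Hi-C, which joins DNA segments that lie close together in the nucleus and counts the joined pairs. Loops are pairs of segments that touch more often than their surroundings do. The cells were HEK293, derived from human embryonic kidney (the growth protocol writes HEK293T), as wild type and as a line labelled eGFP-YAP, which carries YAP, a co-activator of transcription in the Hippo pathway, with a fluorescent tag. Each was left untreated or kept for 1 h in 200 mM sorbitol, which makes the medium hyperosmotic and shrinks cells. The labels name 3 samples for each wild-type group and 4 for each eGFP-YAP group, 14 of the 32 samples of the series. For the eGFP-YAP cells the design text adds 1 h without serum before sorbitol, and whether the untreated cells also went without serum is not given in the sources used here. Nor is it stated how the fusion was introduced or whether the line is a single clone. Each condition has 1 pooled list, the read depth behind it is unknown, and no difference below has a replicate check or a test. The line and the source named in the list titles change together, so they cannot be told apart. No expression was measured in these lists, so the cells could not be checked against markers. All intervals are at the 95% level and reflect only the counting of loops, which are not replicates.

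MYC encodes a transcription factor that drives growth and division, and its level depends on enhancers that are spread over long stretches of DNA on both sides of the gene. PVT1, its downstream neighbour, makes a long non-coding RNA, and its promoter is known to compete with that of MYC for the same enhancers. Most loops in human cells are held by the ring complex cohesin, which draws DNA through itself until it meets CTCF, a protein that binds an oriented DNA motif. Pairs of CTCF motifs that point towards each other are the typical arrangement at loop anchors.

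A single 5 kb bin upstream of MYC carried all 4 loops that reached the MYC start, 1 in the wild-type control list and 3 in the eGFP-YAP control list. This bin, chr8:127730001-127735000, ended 434 bp before the annotated MYC start (127735434, plus strand) and lay within CASC11, an antisense long non-coding RNA gene, where it overlapped an exon. It was the same bin in both lines. All 4 loops ran downstream, across the start of PVT1, and none ran upstream towards POU5F1B, CASC8 or PCAT1. No loop had an anchor within 25 kb of the PVT1 start (127794526, plus strand), which lay 59.5 kb from the MYC bin. No sorbitol loop of either line had an anchor within 25 kb of either start.

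In the wild-type control list, the MYC bin was joined to chr8:129675001-129680000 over 1945 kb. The far anchor overlapped an exon of CCDC26, a long non-coding RNA gene, and lay 3.77 kb inside the CCDC26 start. By span this loop ranked 16 of 15180 in its list. Its peak score, which the caller gives and which was used to rank loops within a list, was 2.65 (percentile 39.3). It was thus a very long loop of ordinary score.

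In the eGFP-YAP control list, the MYC bin was joined to 3 places, none of which was the wild-type partner. The nearest, chr8:128130001-128135000, lay in an intron of PVT1 at a span of 400 kb, with a peak score of 2.69 (percentile 18.7). The next, chr8:128320001-128325000, held the start of the long non-coding RNA gene ENSG00000286034 beyond the end of PVT1, at 590 kb and a score of 3.65 (percentile 53.9). The farthest, chr8:128850001-128855000, lay in an intron of CCDC26 at 1120 kb, with a score of 7.39 (percentile 95.6). That loop ranked 829 of 18966 by score, the highest of the 13 domain loops relative to its list. The MYC bin was the only anchor of the domain with 3 or more loops in a list, and 4.77% of all eGFP-YAP control anchor bins carry that many. In wild type, where 2.07% of bins do, the MYC bin carried 1 loop.

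**Figure D1:**
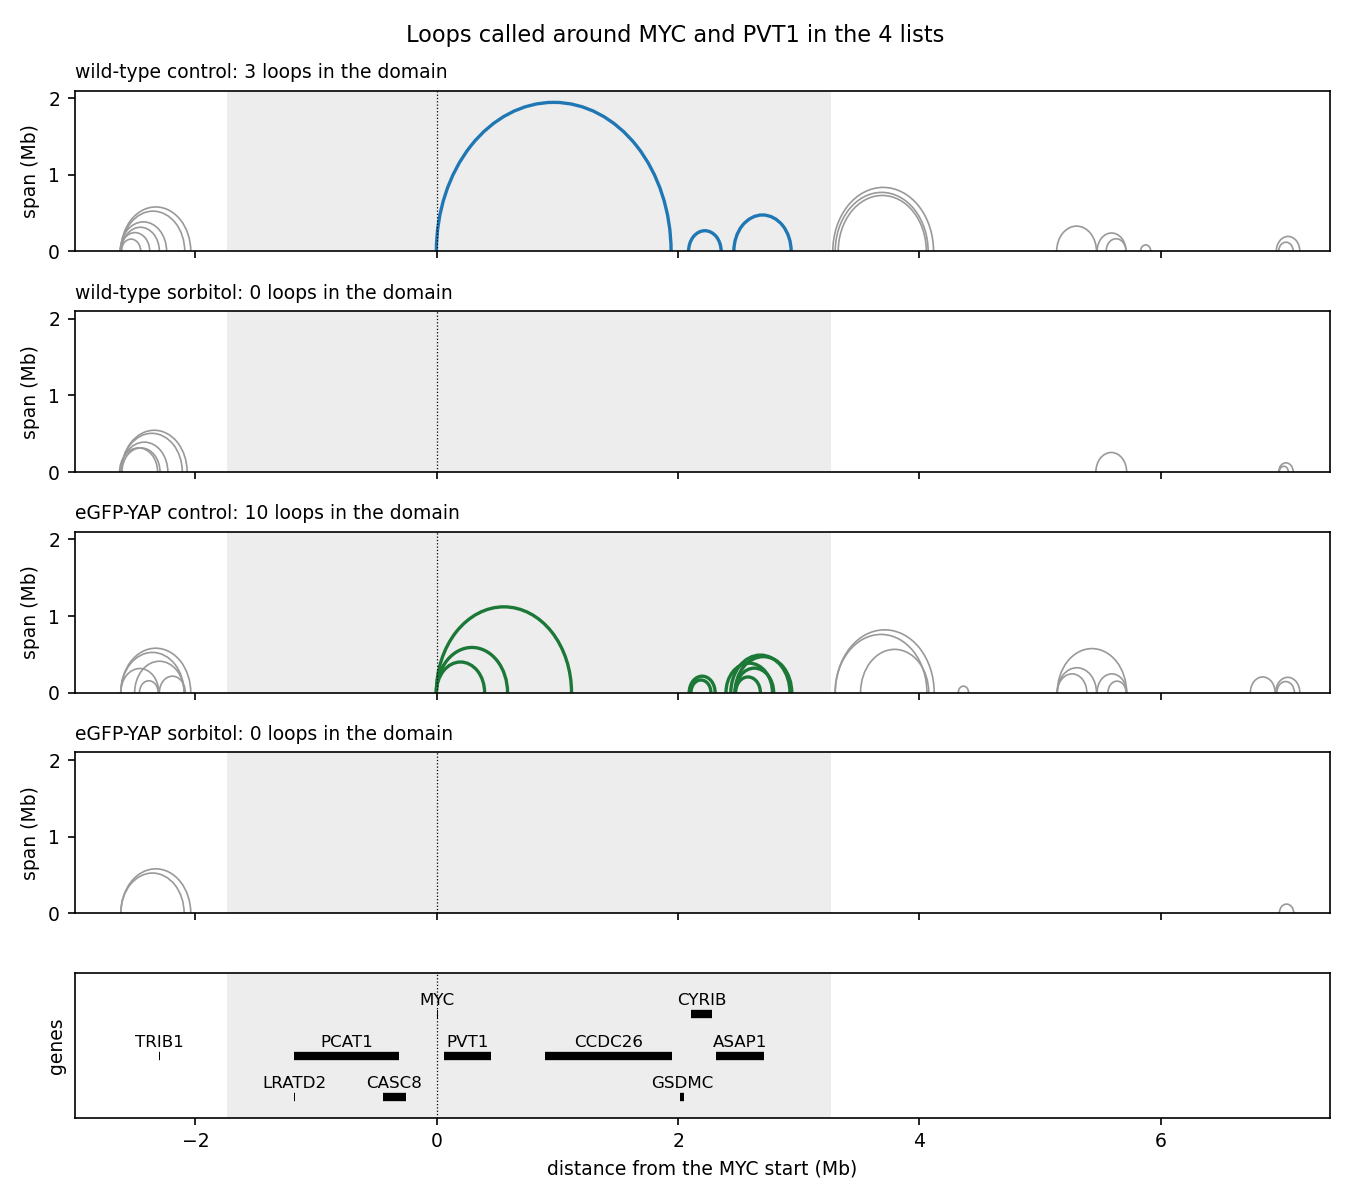
Loops as arcs by distance from the MYC start (Mb, horizontal axis), with arc height equal to span (Mb), in the 4 lists, and gene positions at the bottom. Coloured arcs are domain loops, grey arcs are loops outside the domain, and the shaded band is the domain. The wild-type control list shows 3 domain loops, the eGFP-YAP control list 10, and the sorbitol lists 0.

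The MYC bin held a full match to the 14-base CTCF core motif, on the plus strand at chr8:127734109-127734122, and its end was 1312 bp before the MYC start. The search covered both strands and allowed 1 mismatch, and a match marks sequence and not bound protein. Of the anchor bins outside the domain, 5.23% in the wild-type control list and 7.26% in the eGFP-YAP control list held a match without mismatch. The wild-type partner in CCDC26 held a match with 1 mismatch on the minus strand (chr8:129677029-129677042). In eGFP-YAP cells the partner beyond PVT1 also held a minus-strand match with 1 mismatch (chr8:128322841-128322854). The motifs of these 2 loops therefore pointed towards each other. With 1 mismatch allowed, 23.2% of the wild-type and 30.1% of the eGFP-YAP control anchor bins outside the domain held a match. The share of all loops with such a pair of motifs is not given here, so these 2 loops cannot be called unusual. The partners within PVT1 and within CCDC26 at 1120 kb, the second of which belonged to the highest-scoring loop, held no match in their 5 kb.

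The rest of the domain held 2 wild-type and 7 eGFP-YAP control loops, and all 9 lay between chr8:129820001 and chr8:130680000, around CYRIB and ASAP1. CYRIB encodes a protein that binds RAC1 and restrains actin remodelling, and ASAP1 encodes a GTPase-activating protein for ARF that acts in cell adhesion and membrane traffic. In wild type a 270 kb loop joined chr8:129820001-129825000, between GSDMC and CYRIB, to chr8:130090001-130095000, which overlapped an exon of ASAP1. It had a score of 3.68 (percentile 82.8), the highest of the 3 wild-type loops. The other, of 475 kb, joined an exon-containing bin of ASAP1 (chr8:130195001-130200000) to chr8:130670001-130675000, outside annotated genes, with a score of 2.61 (percentile 37.0).

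In eGFP-YAP cells 2 loops lay over CYRIB. One of 215 kb joined chr8:129825001-129830000 to chr8:130040001-130045000, both outside annotated genes, with a score of 3.10 (percentile 35.5). Its motifs, minus on the left and plus on the right, pointed away from each other. The other, of 165 kb, joined an exon-containing bin of CYRIB (chr8:129840001-129845000) to an intronic bin that holds the microRNA gene MIR5194 (chr8:130005001-130010000) and lies 7.50 kb from the CYRIB start. Its score was 2.46 (percentile 9.45).

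The remaining 5 eGFP-YAP loops had their left anchors in ASAP1, from chr8:130130001-130135000 to chr8:130210001-130215000. Their spans were 385, 490, 320, 470 and 205 kb in the order of their left anchors. Their scores in the same order were 2.21, 3.48, 2.49, 3.73 and 2.18, at percentiles 2.25, 48.9, 10.5, 56.1 and 1.73. Of the right anchors, 4 lay outside annotated genes beyond the ASAP1 start, and the right anchor of the 205 kb loop lay in an intron 23.7 kb from that start. The bin chr8:130205001-130210000 was shared by the 320 kb and 470 kb loops. The right anchors of the 385, 470 and 205 kb loops held a minus-strand motif match, which was a match without mismatch only for the 385 kb loop, and the left anchor of the 490 kb loop held a plus-strand match.

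Within the domain the anchors were unevenly placed. The 1.73 Mb before the MYC bin, which holds LRATD2, PCAT1, PRNCR1, CASC19, CASC8, POU5F1B and CCAT2, contained no anchor in any list. The same anchor-free stretch of 2.03 Mb, from chr8:125700001 to chr8:127730000, stood to the left of the MYC bin in both control lists. It ranked 125 of 26500 such stretches by length in wild type and 92 of 30168 in eGFP-YAP. The 1.95 Mb from the MYC bin to the CCDC26 start held 1 of 6 wild-type and 3 of 17 eGFP-YAP anchor bins of the domain loops. The 1.32 Mb from there to the end of the domain held 4 and 13.

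Of 20 annotated genes of the domain that were listed for this description, 6 protein-coding and 14 non-coding, 3 had an anchor within 25 kb of their start in wild-type control, beside 41.7% of all 62062 annotated genes. In eGFP-YAP control it was 5 of the 20, beside 48.7% of all. Neighbouring genes can share an anchor, so the 20 are not independent of each other. MYC and CASC11, which share the bin, were in both sets. CCDC26 was the third gene in wild type. In eGFP-YAP the others were CYRIB, ASAP1 and the microRNA gene MIR1208. The start of GSDMC, which encodes a pore-forming gasdermin, lay 33.4 kb from the nearest wild-type and 38.4 kb from the nearest eGFP-YAP control anchor. None of the 20 had an anchor within 25 kb in either sorbitol list, beside 26.9% of all genes in wild type and 27.8% in eGFP-YAP. This follows from the absence of sorbitol loops in the domain.

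**Figure D2:**
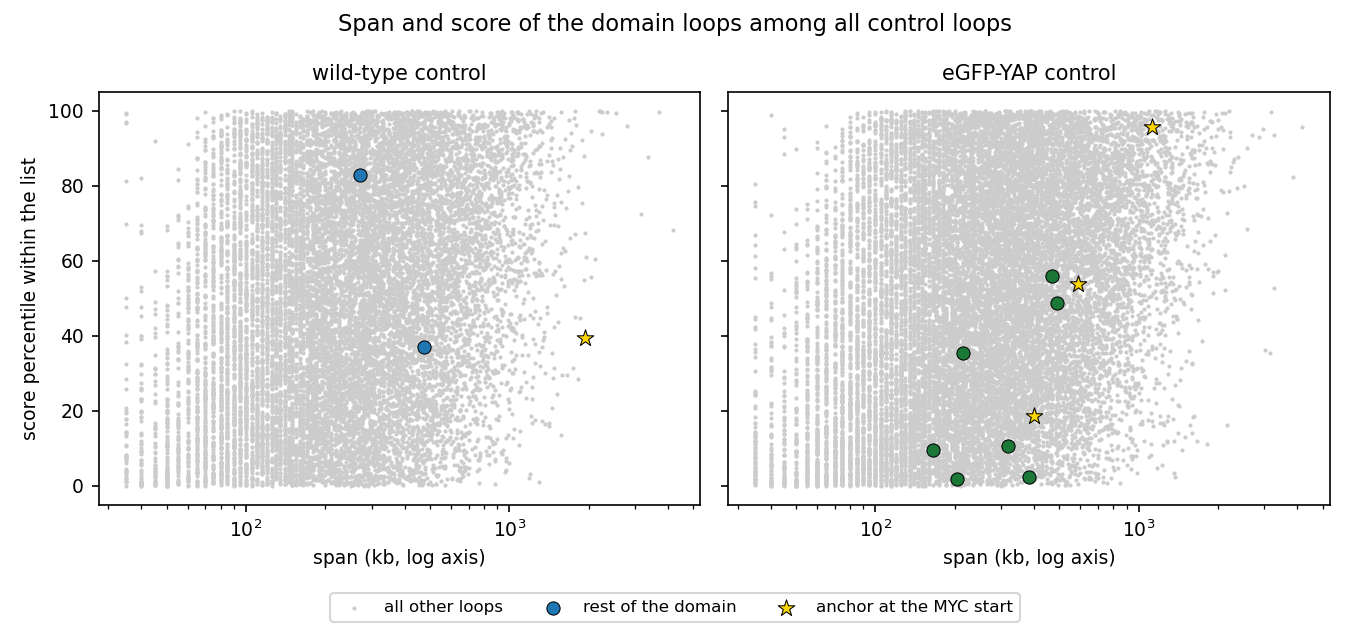
Score percentile within the list (vertical axis) against span (kb, log axis) for the loops of the wild-type (left) and eGFP-YAP (right) control lists. Grey points are all other loops, circles the rest of the domain and stars the loops at the MYC start. The wild-type MYC loop lies at the long end at 1945 kb and percentile 39.3, and the eGFP-YAP MYC loops lie at percentiles 18.7, 53.9 and 95.6.

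The domain loops had a larger median span than the loops outside it in both control lists. In eGFP-YAP the difference was within the counting interval, and the 3 wild-type loops were too few for an interval. The median span was 475 kb over the 3 wild-type loops (shortest 270 kb, longest 1945 kb), beside 240 kb (interval 235 to 240 kb) over the loops outside the domain. Over the 10 eGFP-YAP loops it was 392.5 kb (interval 205 to 590 kb), beside 260 kb (255 to 265 kb). The median score percentile was 39.3 for the wild-type loops and 27.1 (interval 2.25 to 56.1) for the eGFP-YAP loops, and the second interval contained the middle of the list. In both lists, some of the loops had a probability of enrichment listed as exactly 1, in wild type the 270 kb loop and in eGFP-YAP the 1120 kb MYC loop and both loops over CYRIB, as had 10.8% and 16.8% of all loops of those lists. A CTCF match stood in 2 of 6 wild-type and 8 of 17 eGFP-YAP anchor bins of the domain, beside 23.2% and 30.1% of the bins outside it.

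The control lists of the lines were then set side by side. By the rule that both anchor centres lie within 10 kb, 1 of the 3 wild-type loops was called in the eGFP-YAP control list, beside 40.2% of all wild-type control loops. In the other direction it was 1 of 10 eGFP-YAP loops, beside 32.2% of all. This was the wild-type loop of 475 kb and its eGFP-YAP counterpart of 470 kb from ASAP1 to DNA upstream of its start, with anchors offset by at most 10 kb. With so few loops the intervals of these shares, 6.15% to 79.2% and 1.79% to 40.4%, contained the shares of the whole lists. Of the 6 wild-type anchor bins, 4 lay within 10 kb of an eGFP-YAP control anchor, among them the MYC bin, which was identical. This share had an interval of 30.0% to 90.3%, beside 69.3% of all wild-type bins. Of the 17 eGFP-YAP bins, 5 lay within 10 kb of a wild-type control anchor (interval 13.3% to 53.1%), below the 63.8% of all eGFP-YAP bins. Bins of neighbouring or shared loops are not independent, so these intervals are too narrow. The wild-type MYC loop itself had no near counterpart, since the closest eGFP-YAP loop was the 1120 kb loop from the same bin, whose far anchor was 825 kb away.

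The comparison of sorbitol with control asked whether any of these loops was called under hyperosmotic stress. None of the 3 wild-type control loops had a partner in the wild-type sorbitol list, beside 92.2% of all wild-type control loops without one. None of the 10 eGFP-YAP loops had one either, beside 90.7% of all. The Wilson intervals for the share called again, 0% to 56.1% and 0% to 27.7%, contained the shares over the whole lists, 7.81% and 9.28%. Among eGFP-YAP control loops of at least 1 Mb in the highest 10% by score, the class of the 1120 kb MYC loop, 33 of 174 were called again, 19.0%. Of wild-type control loops of at least 1 Mb, the class of the 1945 kb MYC loop, 13 of 402 were, 3.23%. In both classes most loops had no partner.

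No sorbitol loop was listed elsewhere in the domain. The sorbitol to control ratio in the domain was 0 to 3 in wild type (exact interval of the ratio 0 to 2.42) and 0 to 10 in eGFP-YAP (0 to 0.446). Outside the domain the wild-type ratio was 0.389 and the eGFP-YAP ratio 0.294, and both values lay inside the domain's intervals. At those ratios the domain's control counts correspond to 1.17 and 2.94 sorbitol loops. A count of 0 allows a share of up to 0.0508% of the wild-type and 0.0538% of the eGFP-YAP sorbitol loops, which is above the 0.0198% that the domain took of the wild-type control list and, by a little, above the 0.0527% of the eGFP-YAP control list. With the lines summed, a choice made after seeing the data, 13 control and 0 sorbitol loops gave an interval of 0 to 0.328. The summed ratio outside the domain was 0.336, but it weights the lines by list length. Of the 13 domain loops, 10 were from eGFP-YAP, the line with the lower ratio, so the 0.336 is not matched to them. At each line's own ratio, the 13 control loops correspond to 4.11 sorbitol loops. When each control list was cut by score to the length of the sorbitol list of its line, the domain kept 1 control loop in wild type, the 270 kb loop, and 1 in eGFP-YAP, the 1120 kb MYC loop.

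None of the 6 wild-type anchor bins of the domain had a wild-type sorbitol anchor within 10 kb, beside 26% of all wild-type control bins that did, and the interval of that share, 0% to 39.0%, contained the 26%. None of the 17 eGFP-YAP bins had an eGFP-YAP sorbitol anchor there, beside 27% of all. That interval, 0% to 18.4%, did not contain the 27%, with the same limit that the bins are not independent. Both counts of 0 bins follow from the absence of sorbitol loops in the domain, so they are not a separate observation. The nearest sorbitol anchor to the MYC start was 2065 kb away in the wild-type list and 2035 kb away in the eGFP-YAP list, on the left within LINC02964, compared with 434 bp in both control lists. For PVT1 the distances were 2125 kb and 2095 kb. The anchor-free stretch that contains MYC and PVT1 in the wild-type sorbitol list ran from chr8:125670001 to chr8:133195000, 7.53 Mb with no unsequenced bases, and ranked 31 of 10592. In the eGFP-YAP sorbitol list it ran from chr8:125700001 to chr8:134715000, 9.02 Mb, and ranked 19 of 9668. The starts of 18 and 21 protein-coding genes lay inside these stretches.

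**Figure D3:**
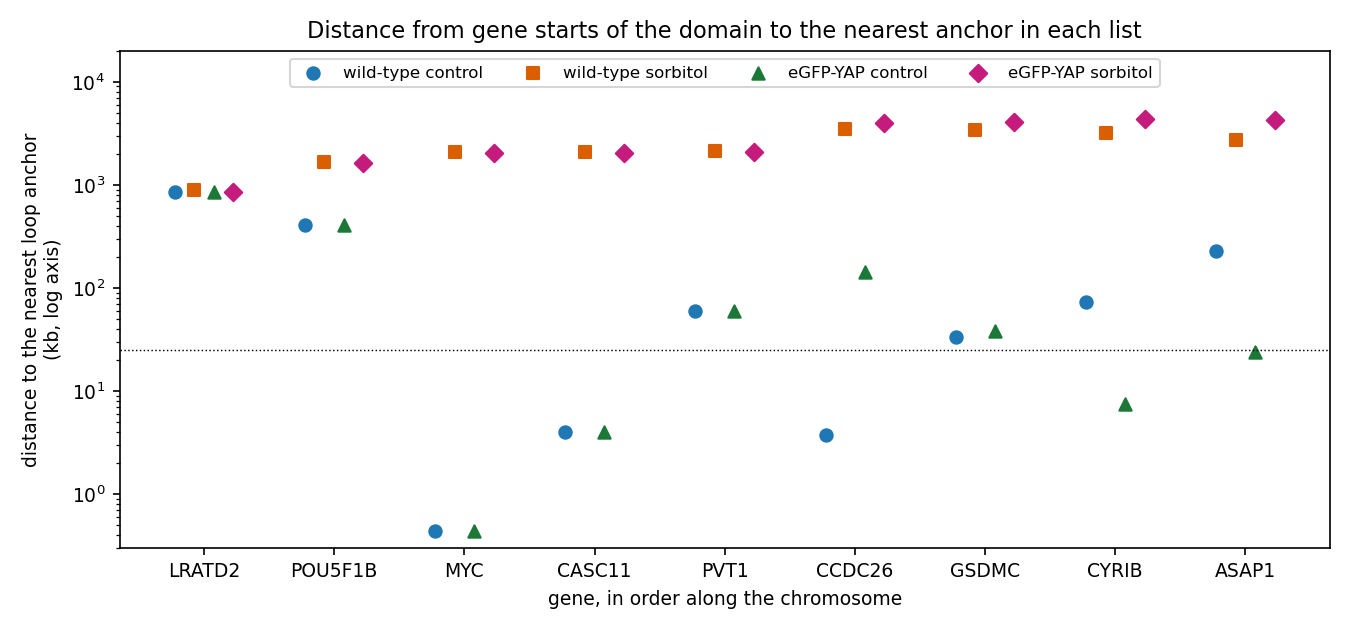
Distance (kb, log axis) from the start of each of 9 genes of the domain, in their order along the chromosome, to the nearest loop anchor in each of the 4 lists, with a dotted line at 25 kb. The control lists reach 434 bp at MYC, where the sorbitol lists stand at 2065 kb and 2035 kb, and at LRATD2 all 4 lists lie between 858 and 888 kb.

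Loops next to the domain were examined on both sides. In the 1 Mb before the domain, where TRIB1 lies, a gene for a pseudokinase that acts in protein degradation, wild type had 6 control and 6 sorbitol loops, and 2 of the control loops were called again. In eGFP-YAP cells there were 6 control and 2 sorbitol loops there, and 2 control loops were called again. The 580 kb loop from an intron of NSMCE2 to LINC02964, whose right anchor ended 300.0 kb before the domain, was in both eGFP-YAP lists. Its score was 8.85 (percentile 98.2) in control and 5.19 (percentile 92.8) with sorbitol. The same loop was in the wild-type control list, with a score of 3.51 (percentile 78.8). The wild-type sorbitol list had no anchor in its right bin. In the 1 Mb after the domain, which holds the start of the adenylyl cyclase gene ADCY8, both lines had 3 control and 0 sorbitol loops. The closest wild-type control loop beyond the edge began 15 kb outside the domain in an intron of ADCY8, with a score of 2.99 (percentile 59.1), and the closest eGFP-YAP control loops began 35 kb outside it.

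The domain was also set beside 559 windows of 5 Mb that cover the genome, of which it is 1. It was poor in loops before any treatment. The median window held 26 wild-type and 34 eGFP-YAP control loops, compared with 3 and 10 in the domain, and 5.72% and 7.87% of windows held as few. Windows without a sorbitol loop made up 7.87% in wild type, 5.9% in eGFP-YAP and 3.76% (21 windows) in both lines at once. Of the 9 windows with exactly 3 wild-type control loops, 4 had no sorbitol loop, the domain and 3 windows on the X chromosome, and the 5 other windows on autosomes had 1 to 4. Of the 8 windows with exactly 10 eGFP-YAP control loops, 5 had none, namely the domain, 2 windows on the X chromosome and 2 on other autosomes, and the others had up to 3. Among the 530 windows with at least 13 control loops summed over both lines, 9 had no sorbitol loop in either line, the domain among them. These were 7 of 510 windows on autosomes and 2 of 20 on the X chromosome.

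**Figure D4:**
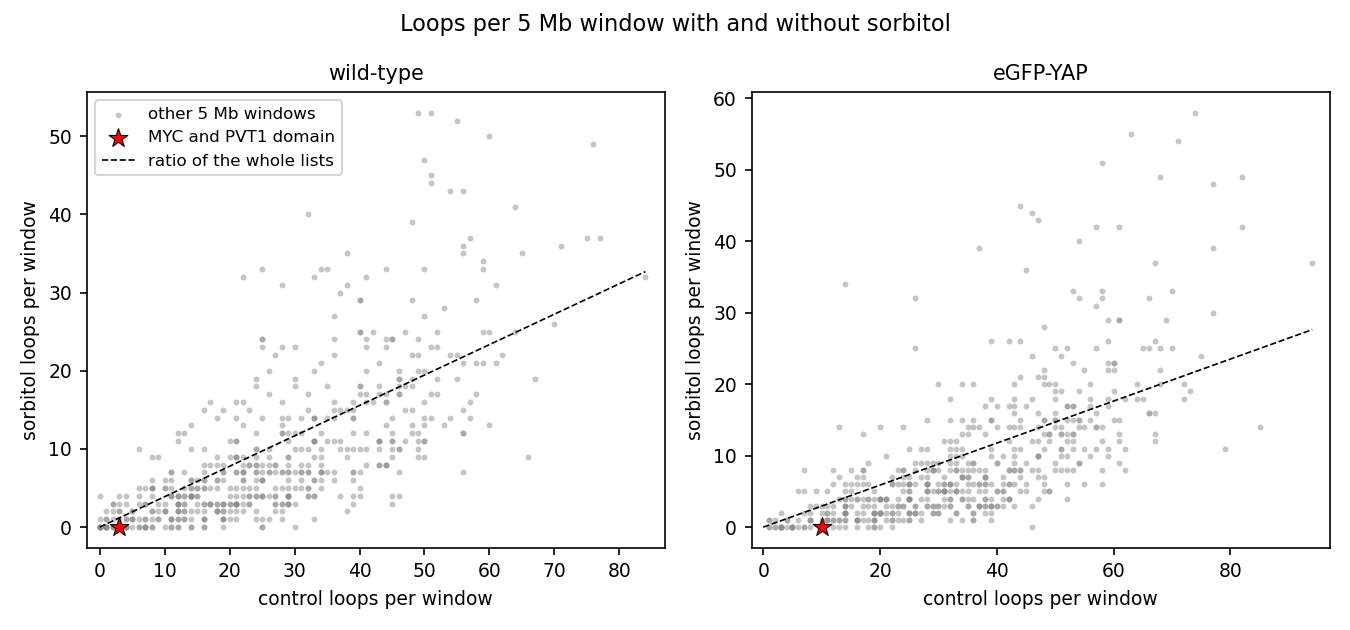
Sorbitol loops (vertical axis) against control loops (horizontal axis) per 5 Mb window in wild type (left) and eGFP-YAP (right). The star is the MYC and PVT1 domain, at 3 and 10 control loops and 0 sorbitol loops, grey points are the other windows, and the dashed line is the ratio of the whole lists. Other windows with as few control loops also lie at 0 sorbitol loops.

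On the rest of chromosome 8 the sorbitol to control ratio was 0.397 (0.337 to 0.467) in wild type, an interval that contained the ratio outside the domain. In eGFP-YAP it was 0.170 (0.139 to 0.207), below the 0.294 outside the domain, and the interval of the eGFP-YAP domain ratio contained both.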

How the data were processed

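The 4 deposited lists hold loops from in situ Hi-C (MboI digestion, per the labels' protocols), called at 5 kb by SIP, judging from the headers. Its version and settings are not given in the sources used here. The build is hg38 per the submitters' processing notes. The authors' peak score has no fixed scale and was used only to rank loops within a list. The authors' probability of enrichment, a fraction of 0.900 or more, was read but not filtered on, and the deposited contact scores were not used. Anchor positions (other values) were written 1-based, and anchors in reverse order (2, 1, 1 and 0 loops, in the order wild-type control, wild-type sorbitol, eGFP-YAP control, eGFP-YAP sorbitol) were sorted. No per-sample column was left out.

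Genes are from GENCODE release 44, and distances run from the nearest edge of an anchor. Of 25 listed genes, 21 were found by symbol, 20 of them in the domain and TRIB1 beside it. CCAT1, CASC21, TMEM75 and LINC00977 were not matched. Windows started at 1 Mb and held at most 10% unsequenced bases. Every loop of the domain is named. Computation used Python 3.11.15, pandas 2.3.3 and scipy 1.17.1. The matching, the motif search and the interval of the count ratio were tested on simulated data. The intervals of shares and medians were not. The members and gene list were chosen with earlier results of these data known. No sequence is printed here.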

Additional observations from a re-analysis of the deposited data

How the results depend on the processing

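No paired analysis was possible because each condition has 1 pooled list and no replicate columns, and for the same reason no replicate could be left out. The share of sorbitol loops without a control partner could not be computed, since the domain held no sorbitol loop. With 13 loops, every count here is small. Of 68 values under alternatives, 50 stayed within the set margin, 18 moved and 0 reversed. The margin was wide. In the upper 50% by score, the median span was 270 kb in wild type (475 kb in the main setting) and 590 kb in eGFP-YAP (392.5 kb). The eGFP-YAP control loops at the MYC or PVT1 start went from 3 to 2 there. All of these were counted as within the margin. The 20 sorbitol counts remained at 0 except for the 2 with the domain widened by 1 Mb on each side, an alternative chosen after seeing the data. It gave 12 control and 6 sorbitol loops in wild type and 19 and 2 in eGFP-YAP. The other sorbitol counts could not move, because their alternatives look only within a domain that held no sorbitol loop. The same holds for the shares of domain control loops called again, except with the widened domain. There they were 16.7% in wild type and 10.5% in eGFP-YAP, beside 7.81% and 9.28% of all control loops, and were counted as within the margin. The fixed values are among the 50 and are no sign of stability. In the upper 50% of each list by score, the domain kept 1 wild-type and 3 eGFP-YAP control loops, with 0 at the wild-type MYC start. In control lists shortened by score to the length of the sorbitol lists, it kept 1 and 1, with 0 and 1 at the MYC start. At equal list length the conditions thus differed by 1 loop in each line. A cut by score does not make read depth equal, and it removes loops of low percentile, which most domain loops were. The share of domain loops found in both control lists fell to 0% in both directions in the upper 50% and for identical bins, and with matching at 25 kb it was 33.3% of the wild-type loops and 20.0% of the eGFP-YAP loops. With no mismatch, motif matches stood at 1 wild-type and 2 eGFP-YAP anchor bins, and with anchors widened by 5 kb on each side at 4 wild-type and 11 eGFP-YAP bins, beside 47.9% and 53.2% of the bins outside the domain. The causes of these shifts were not tested.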
